A study of Mus musculus with 8 samples.

Results

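Wnt proteins are secreted lipid-modified glycoproteins that bind Frizzled receptors together with co-receptors such as Lrp5, Lrp6, Ror1 and Ror2. In one branch of the pathway this stabilises beta-catenin, which acts with TCF/LEF factors on transcription, and other branches act on cell polarity and movement without beta-catenin. Secreted frizzled-related proteins (sFRPs) hold Wnts outside the cell through a Frizzled-like domain, and proteins of the Dickkopf family bind the Lrp co-receptors. Lithium is a known inhibitor of glycogen synthase kinase 3, the kinase that marks beta-catenin for destruction, and fibroblasts and other mesenchymal cells are known sources of several Wnts and sFRPs.

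The 10 genes described here are 6 secreted inhibitors, Sfrp1, Sfrp2, Sfrp5, Frzb, Dkk2 and Dkk3, and 4 ligands, Wnt4, Wnt5a, Wnt6 and Wnt7b. They were listed by name, and each probe set annotated to 1 of these symbols alone was taken, which gave 23 probe sets of 45037 tested and 10 genes of 18193. A probe set is the group of short probes that measures a transcript on the array, and the main probe set of a gene was the one with the highest mean log2 signal over the 8 arrays. Of the 10 genes 2 had a single probe set and 8 had several.

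Optic nerves of C57BL/6 mice aged P35-45 were cultured whole on membranes (organotypic culture) for 3 days, in medium with saline (Control) or with 20 mM lithium chloride (Lithium). RNA from 4 samples of each group was hybridised to 8 Affymetrix arrays, with 6 nerves in a sample per the labels. The paper conflicts with the labels on the array samples, since it gives the strain as C57/BL10 and fewer nerves for the transcriptomic work than 4 such samples in each group would take. Its methods describe nerves explanted with the retina and cleaned of the arachnoid. Since it is not stated whether each sample was its own culture from its own animals, the p-values describe the spread among these 8 samples, part of which may be technical.

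The deposited values are MAS5 signals on a linear scale, scaled so that the trimmed mean of each array was 100. Pearson's correlation of log2 signals over all tested probe sets was 0.968 to 0.983 within groups and 0.950 to 0.973 between them. For Gapdh the 3′ probe set exceeded the 5′ one, a sign of RNA quality, by log2 values of 0.34 to 0.40 on control arrays and 0.35 to 0.53 on lithium arrays, the highest of them array 1. Summed over their markers, astrocytes had a signal of 8108 to 8639 in controls and 7549 to 8863 in lithium, and mature oligodendrocytes one of 10847 to 11830 and 10923 to 14293. Of the 7 photoreceptor markers measured, 4 (Pde6b, Crx, Nrl and Prph2) were at background on all 8 arrays. Sag was above background on all 8, at 11.1 to 22.3, and Rcvrn and Gnat1 were above it on most. Background on an array here means the brightest of its 27 control probe sets for bacterial poly-A transcripts, which was 2.13 to 5.64 over the 8 arrays.

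Sfrp5, an sFRP that binds Wnts outside the cell, was the 1 member of 10 whose main probe set passed the adjusted p of 0.05, and it fell in lithium. Of all genes 3.23% passed in that comparison, 2.05% as lower and 1.18% as higher. No member was higher by limma's adjusted p, or at an unadjusted p under 0.05, while 4 members were lower at that unadjusted p (Sfrp5, Frzb, Wnt4 and Wnt5a). Of all genes 12.6% were lower and 9.38% higher at it. In the same 4 genes every lithium value lay below every control value, and 8.79% of all genes had groups parted in that direction. No member had its groups parted the other way, and 6.3% of all genes did. The difference of mean log2 signals was below 0 in 9 of 10 members, against 50.3% of all genes, and its median was -0.85 over the members and -0.0028 over all genes. The members and the gene lists below were chosen with earlier results of these data known. Comparisons of them with all genes are therefore descriptions and not tests. Over all 23 probe sets 21 had a difference below 0, 3 passed as lower (1.39% of all probe sets did) and 0 passed as higher by limma (0.944% did). The 3 were 1 of Sfrp5 and 2 of Wnt5a, and 7 probe sets had all lithium values below all control values, against 6.29% of all probe sets.

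**Figure D1:**
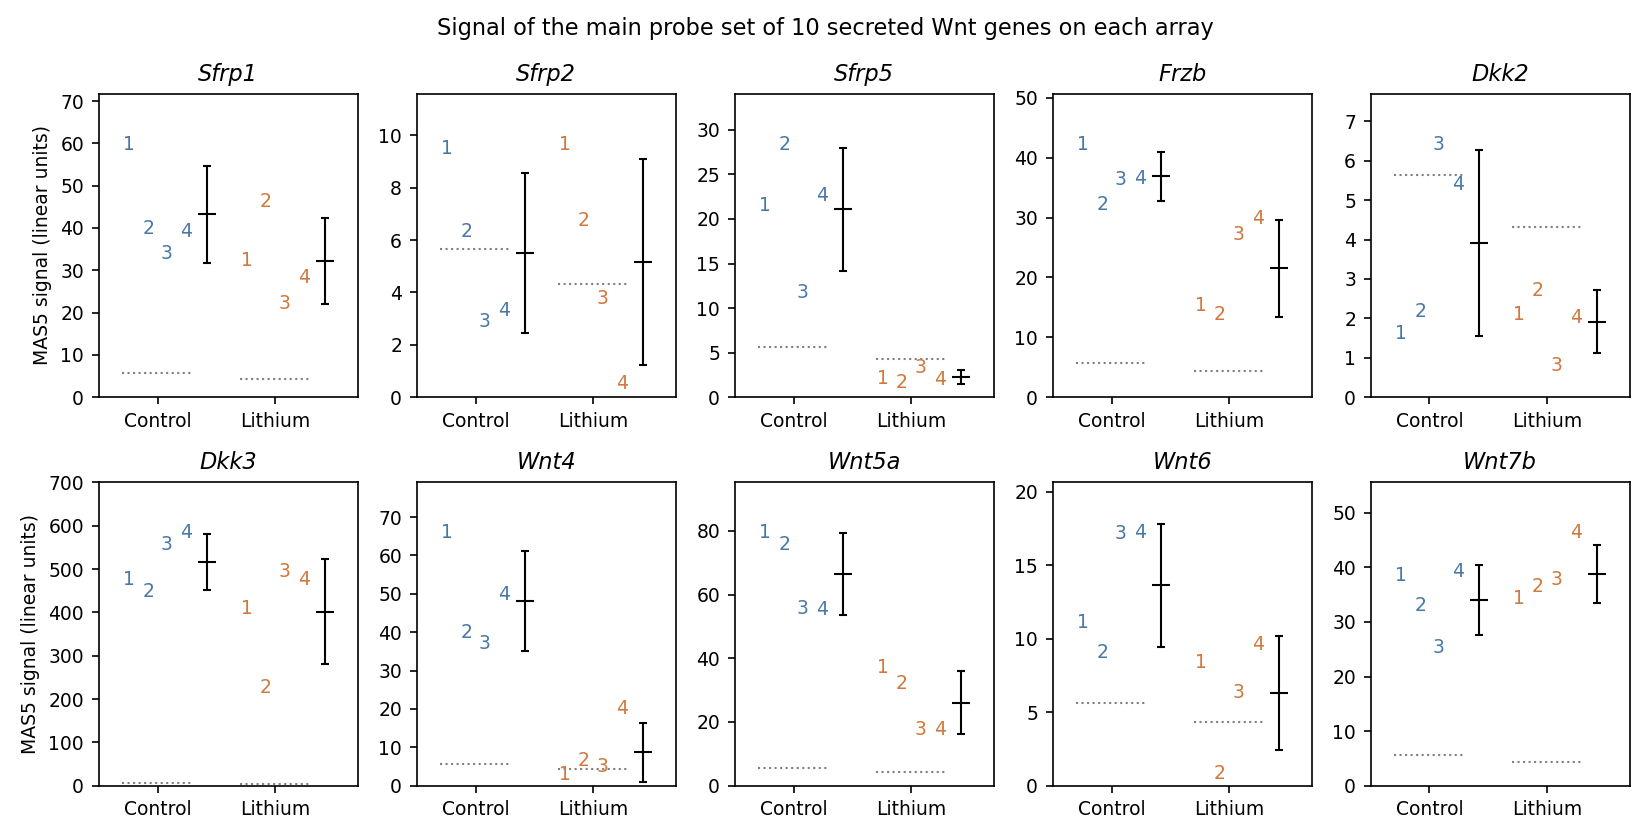
MAS5 signal (linear units, axis from 0) of the main probe set of each of the 10 genes, with digits giving the replicate number of each array (blue Control, orange Lithium), a bar at the mean ± SD (n = 4) and a dotted line at the highest background signal of the group's arrays. The groups of Sfrp5, Frzb, Wnt4 and Wnt5a do not overlap, and the lithium values of Sfrp5, 1.64 to 3.36, lie under the line.

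The signal of Sfrp5 was 21.5, 28.4, 11.8 and 22.7 on the control arrays, in the order of their numbers, and 2.08, 1.64, 3.36 and 1.95 with lithium. Each control value was above background and each lithium value was at background on its own array, so that the size of the fall has only a lower bound. Against the background signals of the lithium arrays, Sfrp5 was at least 5.14-fold lower in lithium. The fitted log2 difference was -3.21 (standard error 0.33, adjusted p = 0.0140 from limma), and the mean signal was 21.1 ± 6.91 without and 2.26 ± 0.756 with lithium (SD, n = 4 each). Leaving out any 1 of the 8 arrays kept Sfrp5 past the threshold, with an adjusted p of 0.0268 to 0.0469, but not with the replicate number as a block (adjusted p = 0.0758). With a term for arrays 1 and 2 against 3 and 4, added after the data were seen, it passed (adjusted p = 0.0121). With the block 0 members were lower, against 0.346% of all genes, and 4605 of all genes had an unadjusted p under 0.05. The second probe set of Sfrp5 was at background on all 8 arrays and gives no direction.

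By the log2 signal over the 8 arrays, the 2 genes above the level of 200 most like Sfrp5, of 5430 compared, were Lpp (r = 0.985) and Stom (r = 0.984). Lpp encodes a protein of focal adhesions and Stom a membrane protein of the stomatin family. Their signals were 736 and 363 in controls and 618 and 187 in lithium, and the 8 points share the division into groups by which Sfrp5 was singled out.

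The other sFRPs did not pass. Frzb, which is also known as sFRP3, had signals of 42.3, 32.3, 36.3 and 36.6 in controls and 15.4, 13.9, 27.1 and 29.8 in lithium. The 4 lithium values lay below the 4 control values, with those of arrays 1 and 2 well below those of arrays 3 and 4. The log2 difference was -0.85 (standard error 0.27, adjusted p = 0.167 from limma), and it was -1.34 within arrays 1 and 2 and -0.36 within arrays 3 and 4. A second probe set of Frzb had a difference of -0.37 (adjusted p = 0.625).

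Sfrp1, the sFRP with the most probe sets here, had signals of 59.8, 39.8, 34.1 and 39.1 in controls and 32.2, 46.2, 22.2 and 28.2 in lithium. The groups overlapped, and lithium array 2 was higher than 3 of the 4 control arrays. Its log2 difference was -0.44 (95% interval -1.07 to 0.19, adjusted p = 0.460 from limma), and the other probe sets had differences of -0.51 to 0.03, none past the adjusted p. Sfrp2 had signals of 2.90 to 9.48 in controls and 0.52 to 9.66 in lithium, close to background. The interval of its difference, -2.12 to 1.51, is too wide to give a direction.

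Of the Dickkopf family, Dkk3 was the 1 member of 10 that reached a mean signal of 200, a level that the study used to filter genes. Dkk3 is a divergent member of the family whose action on Wnt signalling is less settled than that of the others. Its main probe set had signals of 475, 448, 557 and 584 in controls and 410, 227, 493 and 477 in lithium, and its second 515, 513, 531 and 463 and then 442, 238, 417 and 419. The groups overlapped on the first probe set and were parted on the second, and lithium array 2 was the lowest on both. The log2 differences were -0.42 (95% interval -1.03 to 0.20, adjusted p = 0.478 from limma) and -0.46 (95% interval -0.94 to 0.03, adjusted p = 0.311). Without lithium array 2 the first difference was -0.16 (adjusted p = 0.626).

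Dkk2, which binds the Lrp co-receptors, had a signal of 1.62, 2.17, 6.42 and 5.41 in controls, with arrays 3 and 4 above background. In lithium it was 2.10, 2.72, 0.804 and 2.03, at background on all 4 arrays. The log2 difference of -0.85 did not pass (adjusted p = 0.484 from limma), and it was 0.35 over arrays 1 and 2 but -2.05 over arrays 3 and 4, and no fold is given because most values were at background.

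Of the ligands, Wnt5a had lower values on each lithium array in 3 of its 4 probe sets. Wnt5a is known for signalling without beta-catenin, through Ror2 among others. Its main probe set had signals of 79.5, 75.8, 55.7 and 55.4 in controls and 37.0, 32.0, 17.7 and 17.7 in lithium. Arrays 1 and 2 were above arrays 3 and 4 in both groups, and the log2 difference of -1.41 (standard error 0.30) did not pass (adjusted p = 0.0637 from limma).

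A further Wnt5a probe set had signals of 54.9, 64.1, 53.3 and 52.4 in controls and 21.4, 22.0, 20.8 and 17.9 in lithium, where it was 2.74-fold lower. The spread within each group was small there, and the log2 difference was -1.45 (standard error 0.10, adjusted p = 0.00699 from limma). Another fell from 11.9, 13.7, 21.6 and 13.5 to 3.60, 4.31, 5.76 and 4.01, with a log2 difference of -1.76 (standard error 0.23, adjusted p = 0.0201). Both kept an adjusted p under 0.05 once the replicate number was a block (adjusted p = 0.0394 and 0.0386), when 0.231% of all probe sets passed as lower. The remaining Wnt5a probe set had values at background on 7 of 8 arrays. On the mean of its 4 probe sets Wnt5a fell, with a log2 difference of -1.33 (adjusted p = 0.00329), when 2.54% of all genes passed as lower.

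Wnt4, a ligand with known roles in kidney and gonad development, had signals of 65.9, 39.9, 37.2 and 49.8 in controls. In lithium it had 3.00, 6.52, 4.98 and 20.1, so that array 4 stood above the other 3 lithium arrays and below every control array. The log2 difference was -2.82 (standard error 0.57, adjusted p = 0.0588 from limma), and it was -3.53 within arrays 1 and 2 and -2.10 within arrays 3 and 4. Wnt4 passed without lithium array 4 (log2 difference -3.35, adjusted p = 0.0272), but in none of the other 7 fits that left out an array (adjusted p up to 0.147). A second probe set had signals of 14.0, 9.61, 12.9 and 12.6 in controls and 3.92, 2.45, 2.03 and 10.1 in lithium, where array 4 was again the highest (log2 difference -1.70, adjusted p = 0.133).

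Wnt6, a ligand known from epithelia, had signals of 11.1, 9.09, 17.2 and 17.2 in controls and 8.38, 0.821, 6.33 and 9.59 in lithium. The highest lithium value lay above the lowest control value, and the log2 difference of -1.47 did not pass (95% interval -3.22 to 0.28, adjusted p = 0.370 from limma). Lithium array 2 was at background, and without it the difference was -0.72 (adjusted p = 0.310). Wnt7b, a ligand of the beta-catenin branch with known roles in the vessels of the central nervous system, was the 1 member whose main probe set did not have a lower mean in lithium. Its signals were 38.5, 33.1, 25.3 and 39.3 in controls and 34.3, 36.5, 37.7 and 46.4 in lithium, with overlapping groups. The log2 difference was 0.20 (95% interval -0.20 to 0.59, adjusted p = 0.633), an interval that leaves out a fall as large as those of the Wnt5a probe sets. The second Wnt7b probe set had a difference of -0.26 (adjusted p = 0.776).

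**Figure D2:**
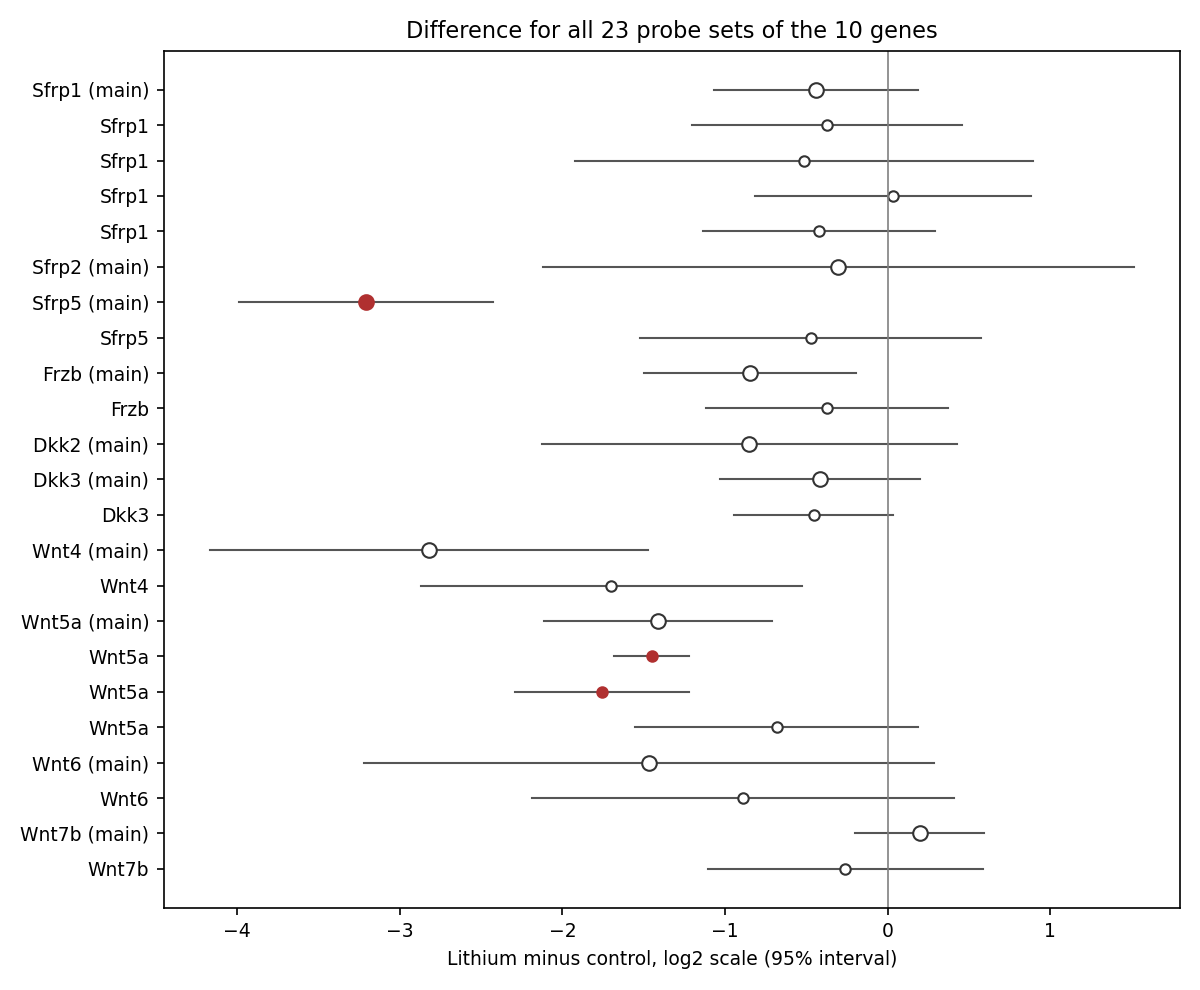
Lithium minus control on the log2 scale for each of the 23 probe sets of the 10 genes (n = 4 arrays each), with lines for the 95% interval of limma and filled red points for an adjusted p under 0.05. The 3 red points are the main probe set of Sfrp5 and 2 further probe sets of Wnt5a, and 21 of the 23 points lie left of 0.

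Some calls of Sfrp5, Wnt4 and Wnt5a moved with the processing. Besides the fit without lithium array 4, Wnt4 was past limma's adjusted p after quantile normalization (0.0474), after median centring (0.0254), with 16 added before log2 (0.0201), with a trended variance (0.0274) and with a term for arrays 1 and 2 against 3 and 4 (0.0495), which was added after the data were seen. Wnt5a passed with 16 added (0.0325), with a trended variance (0.0367) with array weights (0.0324) and with that term (0.00645), besides the mean of its probe sets.

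**Figure D3:**
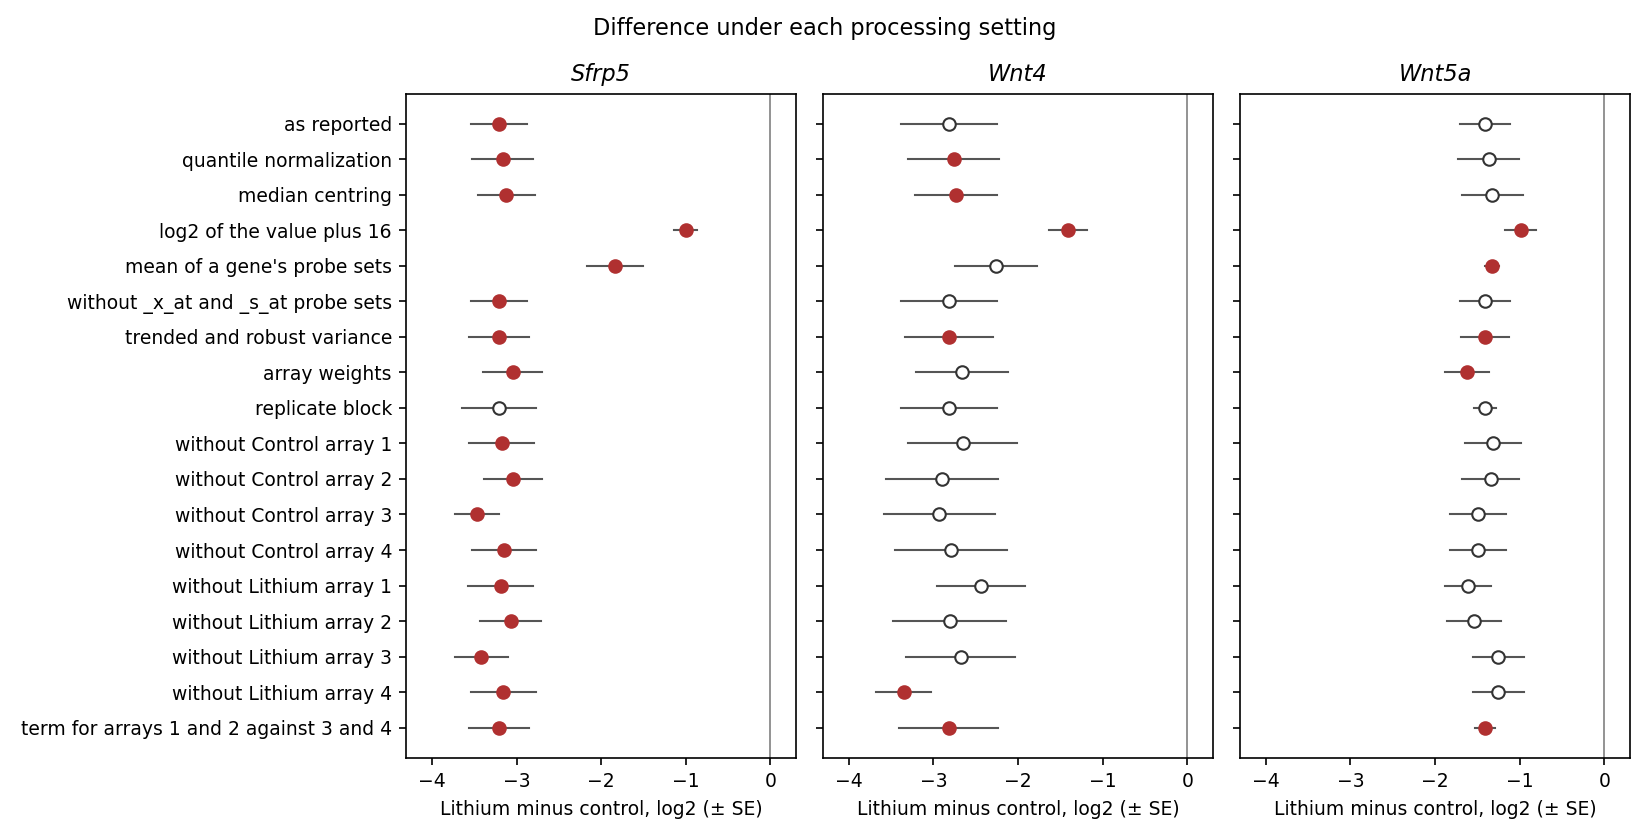
Lithium minus control on the log2 scale (point, with ± 1 standard error as a line) for Sfrp5, Wnt4 and Wnt5a under each setting, filled red where limma's adjusted p was under 0.05. Points are for the main probe set, except in the setting that averages all probe sets of a gene. Sfrp5 is filled in all settings shown but the replicate block, and with 16 added before log2 its difference shrinks to -1.003.

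The promoter windows of Sfrp5 and Wnt4, the members with the largest differences, are shown to give the sequence next to the start of each gene. They are the 250 bases before the start in RefSeq (build GRCm38.p6), read 5′ to 3′ on the strand of the gene, with each CG dinucleotide in capitals. The window of Sfrp5 is chr19:42202253-42202502 on the minus strand, and that of Wnt4 is chr4:137277385-137277634 on the plus strand.
Sfrp5: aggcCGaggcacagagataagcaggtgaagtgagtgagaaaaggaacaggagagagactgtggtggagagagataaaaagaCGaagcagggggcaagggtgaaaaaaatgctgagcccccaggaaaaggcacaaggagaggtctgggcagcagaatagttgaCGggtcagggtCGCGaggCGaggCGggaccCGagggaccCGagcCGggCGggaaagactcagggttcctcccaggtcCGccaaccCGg
Wnt4: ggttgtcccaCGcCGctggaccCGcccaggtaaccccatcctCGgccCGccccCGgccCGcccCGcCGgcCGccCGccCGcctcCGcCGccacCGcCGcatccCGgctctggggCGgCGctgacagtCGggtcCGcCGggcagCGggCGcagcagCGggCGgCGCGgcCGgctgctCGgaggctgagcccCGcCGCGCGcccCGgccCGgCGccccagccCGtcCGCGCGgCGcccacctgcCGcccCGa

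The Wnt4 window held 44 CG dinucleotides and 85.2% G and C, and that of Sfrp5 held 13 and 59.6%. Over 32851 windows of the same length the medians were 6 and 52.4%, and 0.539% of windows held at least as many CG dinucleotides as that of Wnt4, against 31.5% for that of Sfrp5. RefSeq windows were found for 6 of the 10 genes, which also include Sfrp2, Frzb, Dkk2 and Wnt6. None of these 6 windows held the letters of a TCF/LEF site, searched on both strands by the letters CTTTGAA, by the letters CTTTGAT, by the letters CTTTGTA and by the letters CTTTGTT, which were found in 14.8% of all windows. A match or its absence is a description of these letters in this window only.

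Beside the members, 74 other genes of the Wnt pathway were measured, in 6 lists. Of these 6 fell, 0 rose and 68 did not pass limma's adjusted p, at which 2.05% of all genes were lower and 1.18% higher. At an unadjusted p under 0.05, 17 were lower and 3 higher, against 12.6% and 9.38% of all genes. The median log2 difference of the 74 was -0.11. Of 19 receptors and co-receptors 5 fell, which were the Frizzled receptors Fzd6, Fzd1, Fzd7 and Fzd8 and the co-receptor Ror1. Fzd6 fell from a signal of 114 ± 12.3 to 50.8 ± 8.44 (log2 difference -1.17, adjusted p = 0.0177) and Fzd1 from 412 ± 9.03 to 189 ± 36.0 (SD, n = 4 each; log2 difference -1.15, adjusted p = 0.0199 from limma). Ror1, Fzd7 and Fzd8 are named because the count is small, after their values were seen. With the replicate number as a block none of the 74 genes was lower, against 0.346% of all genes.

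Of 10 other secreted inhibitors none passed limma's adjusted p (1 lower and 0 higher at an unadjusted p under 0.05). The lowest p was that of Igfbp4, an insulin-like growth factor binding protein that also binds Wnt receptors, whose control and lithium signals were 351 ± 45.8 and 92.8 ± 71.4 (adjusted p = 0.0800). Of 15 other Wnt ligands none passed (3 lower and 0 higher at an unadjusted p under 0.05), and 4 were at background on all arrays. Their median log2 difference was -0.47, and the lowest p was that of Wnt7a, with signals of 9.39 ± 2.21 and 4.27 ± 1.28 (adjusted p = 0.0676 from limma). Of 7 genes for other agonists and for ligand secretion none passed (1 lower and 1 higher at an unadjusted p under 0.05). Rspo1, an R-spondin that amplifies Wnt signalling, had the lowest p there, at 5.53 ± 1.58 without and 10.3 ± 1.82 with lithium (SD, n = 4 each; adjusted p = 0.0991).

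Of 14 intracellular transducers none passed limma's adjusted p (3 lower and 1 higher at an unadjusted p under 0.05), with a median of 0.05. Tcf7l2, a transcription factor that binds beta-catenin, had the lowest p, with signals of 275 ± 14.9 and 198 ± 29.9 (SD, n = 4 each; adjusted p = 0.0878). Of 9 feedback targets Lef1 fell, from 59.8 ± 6.91 to 24.7 ± 7.83 (log2 difference -1.32, adjusted p = 0.0394), and 8 did not pass limma's adjusted p (1 lower and 1 higher of the 9 at an unadjusted p under 0.05). The 1 higher was Axin2, a negative regulator of the pathway and a common readout of it, named after its values were seen, with signals of 147 to 174 in controls and 190 to 242 in lithium (log2 difference 0.35, adjusted p = 0.132). Lef1 is a TCF/LEF factor and itself a target of the pathway, and the median of the feedback targets was 0.08.

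**Figure D4:**
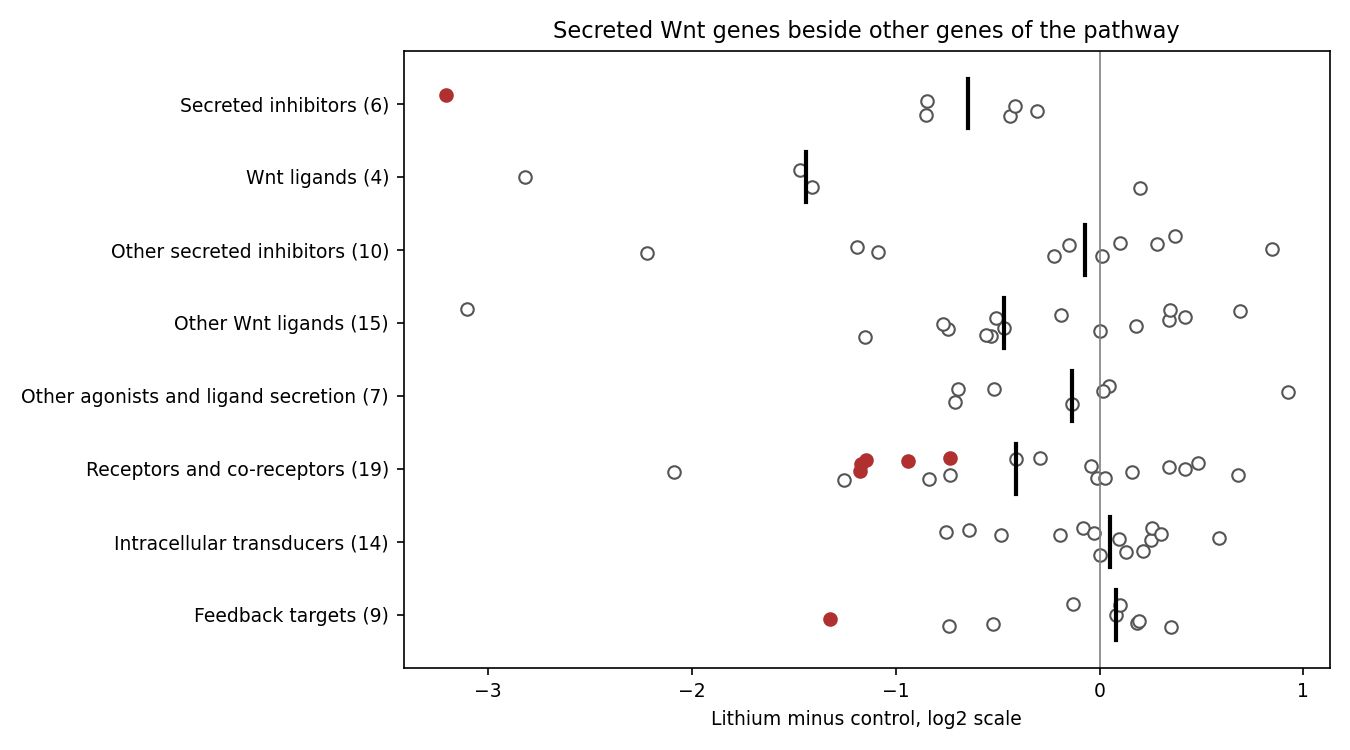
Lithium minus control on the log2 scale (n = 4 arrays each) for the main probe set of each member and of 74 other Wnt pathway genes, where each point is a gene, filled points have an adjusted p under 0.05 and black bars are the medians of the lists. The 4 Wnt ligands described here have a median of -1.44, and the intracellular transducers and feedback targets have medians close to 0.

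Markers of meningeal and perivascular fibroblasts had lower mean signals on the lithium arrays. Of 14 markers measured, 3 fell (the transcription factor Foxc1, the collagen Col3a1 and the proteoglycan Lum), 0 rose, and all 14 had a difference below 0, with a median of -1.56. Of all genes 2.05% passed as lower and 1.18% as higher, and 50.3% had a difference below 0. With the replicate number as a block none of the 3 markers passed (adjusted p = 0.0564, 0.0663 and 0.125 from limma), when 0.346% of all genes passed as lower. None of the 14 was at background on all arrays. Their summed signal was 5823, 4268, 6208 and 6872 in controls 1 to 4 and 1235, 1688, 2906 and 3181 in the lithium samples, and the groups did not overlap. Among the lithium arrays the sum was highest on array 4, as both probe sets of Wnt4 were. The sum was lowest on array 1, where the main probe set of Wnt4 was also lowest and at background. That probe set was lower on array 3 than on array 2, unlike the sum. The second probe set of Wnt4 was lowest on array 3, at 2.03, and had 3.92 on array 1, which is also unlike the sum. The main probe set of Frzb was higher on lithium arrays 3 and 4 than on 1 and 2, like the sum, and that of Wnt5a was lower there. Sfrp5 was at background on all 4. Fewer cells of a type and less RNA per cell cannot be told apart in these bulk samples, and the part of fibroblast markers in the values of Sfrp5, Wnt4, Wnt5a, Wnt6 and Frzb was not tested.

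Of the other marker lists, Pdgfrb among 10 markers of pericytes and smooth muscle, Kdr among 10 of endothelial cells, Trem2 among 9 of microglia and Egr2 among 4 of Schwann cells fell, and none rose. Of all genes 2.05% passed as lower and 1.18% as higher. With the replicate block none of these 4 markers passed (adjusted p = 0.0550, 0.0989, 0.0610 and 0.0896 from limma), when 0.346% of all genes passed as lower. The other Schwann cell markers with parted groups, Ngfr and Ncmap, differed the other way. Of all genes 8.79% had groups parted as lower and 6.3% as higher. Ngfr had means of 85.4 in controls and 185 in lithium and Ncmap means of 4.41 and 14.8, and neither passed limma's adjusted p (0.173 and 0.207). The median of the Schwann cell markers was 0.49. The summed signal of endothelial markers was 492 to 932 in controls and 268 to 605 in lithium, and that of pericyte and smooth muscle markers 1134 to 1911 and 1011 to 2001. Tyrp1 and Mlana, markers of pigmented cells of the eye, were at most 0.418 and 16.7 in controls but 65.0 and 280 on lithium array 1 and 18.5 and 75.2 on lithium array 2. On lithium arrays 3 and 4 they were 1.84 and 1.03 for Tyrp1 and 4.50 and 3.28 for Mlana. Neither passed limma's adjusted p (0.330 and 0.577), and their part in the values of the members was not tested. They are 2 of 9 markers of the retinal pigment epithelium. None of the 9 passed, 3 had a difference below 0 (50.3% of all genes did), and the median log2 difference was 0.31. Tyr and Pmel were also highest on lithium array 1, but Rlbp1 and Rdh5 were highest on lithium arrays 3 and 4.

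**Figure D5:**
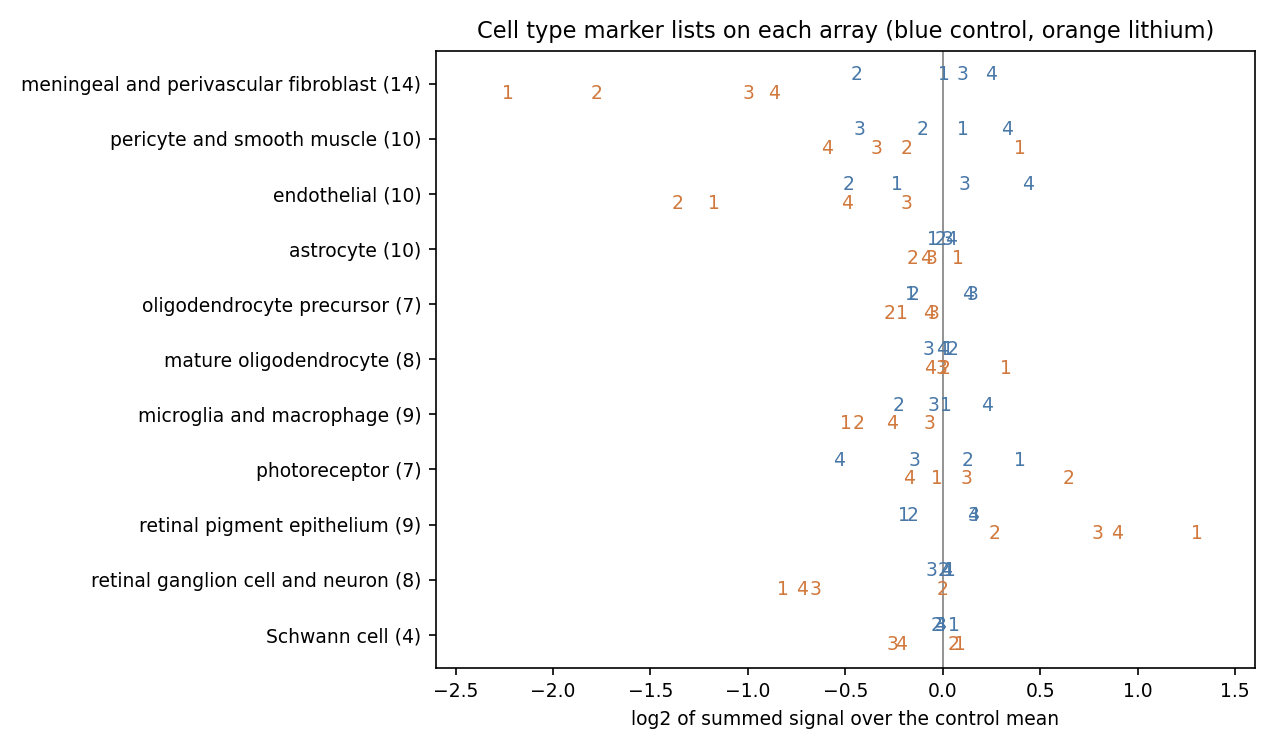
Log2 of the summed signal of each cell type marker list over its control mean, with the number of markers measured in brackets and digits giving the replicate number of each array (blue Control, orange Lithium). The 4 lithium arrays lie left of the 4 control arrays for fibroblast markers, and the groups overlap for astrocyte markers.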

How the data were processed

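RNA of 4 control and 4 lithium-treated optic nerve samples was measured on one-colour Affymetrix mouse arrays. The authors made the deposited values, linear intensities, 1 per probe set and array, with the MAS5 algorithm in Agilent GeneSpring GX after Affymetrix GeneChip Operating Software. The methods also name a shift of each gene to its mean over the samples as a baseline, but the deposited intensities are neither log transformed nor centred, and detection calls were not used here. Of 45101 probe sets 64 Affymetrix controls were left out of the tests. Gene symbols came from GEO's platform annotation, and probe sets with 1 symbol gave 18193 genes.

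Intensities under 1 were set to 1 (14.5% of values) before log2. The difference between lithium and control was then fitted for 45037 probe sets (lmFit, eBayes) in limma 3.58.1 under R 4.3.3, with no term for the replicate number. The Benjamini-Hochberg adjustment ran over all these probe sets, and a gene was called at an adjusted p under 0.05 on its main probe set. Values near the floor carry little information. Where a group was at background on every array, a lower bound was given against the background signals. Precision is limited by the 8 arrays.

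The members and gene lists were chosen with earlier results of these data known. The text names all members, up to 2 higher and 2 lower genes past the adjusted p in each other pathway list or the gene with the lowest p, markers past the adjusted p, up to 2 a list, and the 2 genes most like each member that passed. Defining markers near background could be named too. Lum, Tyrp1, Mlana, Tyr, Pmel, Rlbp1, Rdh5, Sag, Rcvrn, Gnat1, Ngfr, Ncmap, Axin2, Ror1, Fzd7 and Fzd8 were named after their values were seen.

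Labels do not say what a shared replicate number means. After group means were removed, each of the 4 pairs of arrays with the same number correlated by 0.130 to 0.197, above the limit of 0.1. The replicate block, an alternative fit, assumed a pairing from the data only, and the reported fit assumed none. Of the pairs with different numbers 3 also lay above that limit (0.115 to 0.131), and the positive values followed arrays 1 and 2 against 3 and 4 rather than single numbers. Alternatives were other scalings, filters, probe set choices, variance models, array weights, the block, the fold change and level the study filtered on and each array left out. A term for arrays 1 and 2 against 3 and 4 was added after the data were seen. On simulated data with 45037 probe sets, 48 of 50 probe sets with a log2 shift of 3 were called in either direction, and of those shifted by 1.5, 27 of 50 higher and 35 of 50 lower. Of 171 calls 13 were wrong. The shifted probe sets were drawn only from brighter ones, above a mean log2 signal that several members did not reach. The main probe sets of Sfrp2, Sfrp5, Frzb, Dkk2, Wnt4 and Wnt6 lay below it. The recovered shares do not describe probe sets as dim as those. The plots used Python 3.11.15 and matplotlib 3.10.9.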

Additional observations from a re-analysis of the deposited data

Results flagged for a closer look

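Each of the 23 probe sets was checked for an array far from the other 3 of its group, which is 46 checks, and chance alone gives about 1 in 20. The check used log2 signals with values under 1 set to 1, and there were 3 such values. The second probe set of Dkk3 had a signal of 238 on lithium array 2, against 417 to 442 on the other lithium arrays. The second probe set of Sfrp5 had 3.71 on control array 2, against 0.593 to 0.891 on the other control arrays, all at background. This Sfrp5 value stood apart only because values under 1 had been set to 1. The dimmest probe set of Wnt5a had 1.22 on lithium array 4, against 0.169 to 1.01 on the other lithium arrays, all at background. The same holds for it.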

How the results depend on the processing

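Of the 10 members 1 was lower past limma's adjusted p as reported (Sfrp5), and 0 were higher in any setting. The count of lower members was 2 after quantile normalization and after median centring (Sfrp5 and Wnt4), 2 with array weights and with probe sets averaged by gene (Sfrp5 and Wnt5a), and 3 with 16 added before log2, with a trended and robust variance and with the added term for arrays 1 and 2 against 3 and 4 (Sfrp5, Wnt4 and Wnt5a). It was 0 with the replicate block. It was also 0 when only probe sets with a mean of 200 were tested, where Dkk3 alone remained of the members (adjusted p = 0.315), and 0 under the fold change of 2 and level of 200. With each array left out it was 1 to 2, the 2 without lithium array 4. The calls over all genes moved as well. By limma 4003 of all genes had an unadjusted p under 0.05 as reported. There were 4132 after quantile normalization, 3382 after median centring, 4088 with array weights and 4036 with probe sets averaged by gene. With 16 added there were 4242, with the trended and robust variance 4084 and with the added term 5216. Of the 74 other pathway genes 6 were lower as reported, 9 with the added term and 8 with 16 added before log2. The count was 5 after median centring and 4 when only probe sets with a mean of 200 were tested. It was 3 with the mean of probe sets, 1 under the fold change and level, and 0 with the replicate block. It stayed at 6 in the other settings with all arrays. With each array left out it was 0 to 4, with 0 without control array 3, 1 without control arrays 1, 2 or 4 and 2 without lithium arrays 1 or 3. Of these genes 1 was higher with the mean of probe sets and 1 with the added term, against 0 as reported. The log2 difference of Sfrp2 was -0.73 to 0.36 with each array left out, above 0 without control array 1 (0.013) and without lithium array 4, and that of Wnt7b was -0.032 on the mean of its probe sets. With 16 added before log2 the difference of Sfrp5 was -1.003 in place of -3.21. Adding 16 to signals as low as those of Sfrp5 in lithium (1.64 to 3.36) shrinks a log2 difference by arithmetic alone. The cause of the other changes was not tested, beyond the fewer probe sets or arrays that some settings use.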
